A study of Mus musculus with 6 samples.

Results

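The immediate early transcription factors described here are 10 genes: Fos, Fosb, Fosl2, Jun, Junb, Jund, Egr1, Atf3, Ier2 and Myc. They were chosen by name, as rows of the deposited expression table, and all 10 were found among its 38715 genes. The study measured messenger RNA by sequencing in mouse testis, with 3 libraries titled Middle and 3 titled Control. The design text sets mice exposed to MES against a control group, and since Control and Middle are the only titles, Middle is taken here as the exposed mice. No genotype, strain, age, dose or route was given in the sources used here for either group, and nothing says whether each library is a different animal. P-values therefore measure only the spread between these libraries, which may be technical.

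Immediate early genes are switched on within minutes of a stimulus, without new protein being made, by kinase cascades that end at ready factors such as SRF with its partners and CREB. Fos and Jun proteins pair through their basic leucine zippers to form AP-1, which binds DNA and changes the rate at which target genes are read. Because surgery, tissue dissociation and delay before freezing also induce these genes, their level per library is commonly read as a sign of handling or stress.

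The inducible start regions of Fos, Jun and Junb are shown because Fos is the model gene of the class and because Jun and Junb passed the level filter used in the test; no readout at promoters was taken in these libraries. RefSeq promoter windows were matched for 7 of the 10 genes. Shown are the 250 bases before the start on build GRCm38.p6, at chr12:85473640-85473889 on the plus strand for Fos, chr4:95052223-95052472 on the minus strand for Jun and chr8:84978749-84978998 on the minus strand for Junb. Capitals mark TGACG, the core of the cyclic AMP response element that CREB and ATF proteins bind, searched on both strands.
Fos: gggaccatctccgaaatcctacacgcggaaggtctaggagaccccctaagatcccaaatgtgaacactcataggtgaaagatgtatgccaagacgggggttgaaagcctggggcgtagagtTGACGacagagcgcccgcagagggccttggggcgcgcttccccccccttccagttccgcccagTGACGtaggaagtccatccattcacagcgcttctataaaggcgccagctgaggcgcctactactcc
Jun: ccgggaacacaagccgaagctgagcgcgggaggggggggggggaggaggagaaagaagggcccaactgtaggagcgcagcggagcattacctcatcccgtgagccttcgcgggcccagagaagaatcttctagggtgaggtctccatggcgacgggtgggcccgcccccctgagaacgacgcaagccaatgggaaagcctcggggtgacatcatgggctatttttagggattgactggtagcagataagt
Junb: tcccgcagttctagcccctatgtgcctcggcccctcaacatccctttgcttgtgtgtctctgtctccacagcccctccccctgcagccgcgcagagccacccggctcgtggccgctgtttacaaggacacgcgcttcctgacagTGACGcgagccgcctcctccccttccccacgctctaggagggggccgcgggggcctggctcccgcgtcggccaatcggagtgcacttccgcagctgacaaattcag
The Fos window held TGACG at 129 and at 66 bases before the start, the Junb window held it at 106 bases, and the Jun window did not hold these letters. The element was present in 17.8% of 32851 promoter windows of the same length. The windows of Fosb and Atf3, which also ended within 50 bases of an annotated transcript start, held 1 copy each. Those of Fosl2 and Jund, 299 and 1210 bases from such a start, held none. In total 4 of the 7 matched windows held TGACG. A match describes the letters and is not a measured site. Variants of the element with other letters were not marked, so a window without TGACG may still hold one.

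The immediate early factors were mostly low. Jund, Jun, Junb and Ier2 entered the test across all genes, and none of these was called between Middle and Control testes. Egr1, Fos, Fosl2, Atf3, Fosb and Myc lay below the level filter, so that test did not cover them. A missing call does not show equal levels. Jund stood far above the others at a mean of 53.0 RPKM over the 6 libraries, a level per gene length and library size. Jun, Junb and Ier2 followed at 1.83, 1.38 and 1.08 RPKM, and Egr1 averaged 0.585 RPKM. Fos, Fosl2, Atf3, Fosb and Myc stayed under 0.5 RPKM in every library, with means over the 6 libraries of 0.184, 0.117, 0.113, 0.0959 and 0.0917 RPKM.

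Within every one of the 6 libraries the order was Jund, Jun, Junb, Ier2, Egr1 and then Fos. The ranges over libraries overlapped between Jun and Junb and between Junb and Ier2. The 5 lowest genes could not be put in order beyond their spread: Fos exceeded Fosl2 in 5 of 6 libraries, Fosl2 exceeded Atf3 in 5, and Atf3 exceeded Fosb, like Fosb Myc, in 3. Low RPKM here means few reads, from 6 to 73 per library for these 5 genes, and 1 of the 60 values, Myc in Middle 1, sat at the limit of 6 reads (3 fragments) that a count of 0 allows. Such limits cover counting error only.

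**Figure D1:**
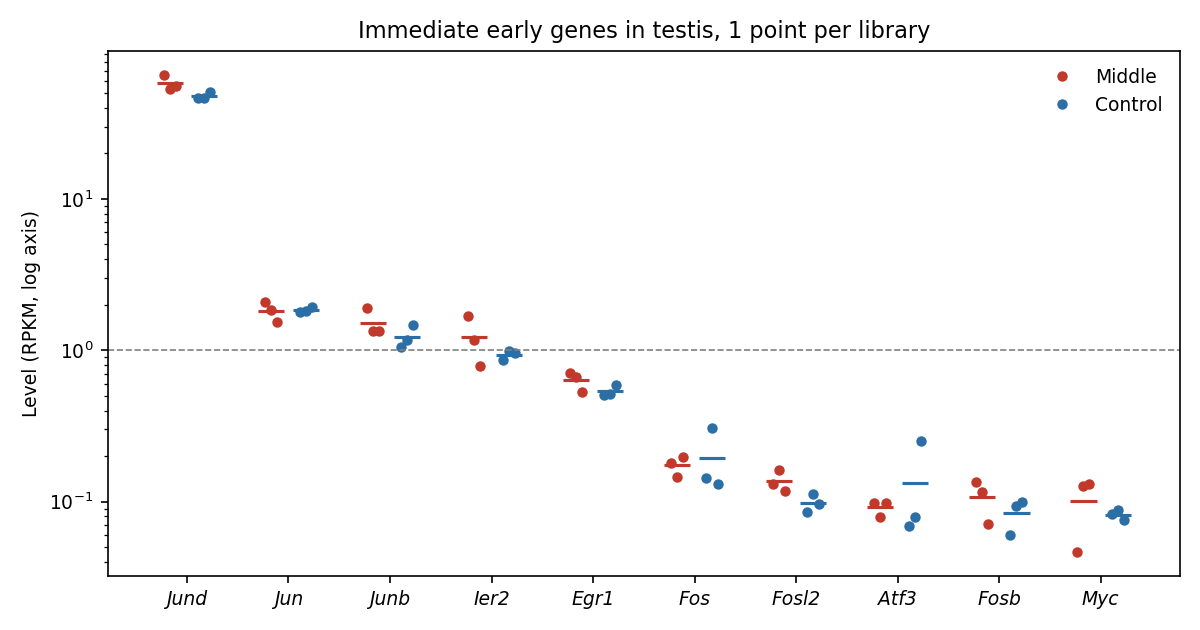
Level of each immediate early gene in RPKM on a log axis, 1 point per library, with Middle in red on the left and Control in blue on the right of each pair and bars at the group means. Jund lies above 46 RPKM in every library, while 5 genes lie under 0.5 RPKM in every library; the dashed line marks 1 RPKM, the group mean a gene needed to enter the test.

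A gene entered the test when its mean reached 1 RPKM in at least 1 group, which Jund, Jun, Junb and Ier2 did. Ier2 lay just inside at 1.22 RPKM in Middle, with 0.937 RPKM in Control, so it entered only through the group where it was higher and its values are a description. Egr1 lay just outside at a highest group mean of 0.635 RPKM. Jund, Jun and Junb reached 1 RPKM in both groups. The call was an adjusted p under 0.05 from limma over 15040 genes. It picked 0 of the 4 fitted immediate early genes, beside 0.0532% of all fitted genes. At an unadjusted p under 0.05, 1 of the 4 (Jund) passed, beside 20.7% of all fitted genes. A limma-voom fit on recovered reads tested all 10 and called 0, beside 0.0419% of its 23889 genes, with 1 (Jund) at an unadjusted p under 0.05, beside 17.8%.

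Fos, the partner that cannot pair with itself and so needs a Jun protein, is the gene most used as a mark of recent stimulation. It had 0.180, 0.146 and 0.196 RPKM in Middle 1 to 3, against 0.143, 0.306 and 0.131 RPKM in Control 1 to 3. The highest value was in a Control library and the groups overlapped. The means were 0.174 ± 0.0255 RPKM in Middle and 0.194 ± 0.0975 RPKM in Control (SD, n = 3 each), a ratio of 0.898 with a two-sided exact permutation p of 1.0. The Fos gene lies at chr12:85520664-85524047 on build GRCm39, and its level rested on 12 to 42 reads per library.

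Fosb, which gives a full and a shortened protein by splicing, had 0.135, 0.117 and 0.0710 RPKM in Middle 1 to 3, against 0.0599, 0.0933 and 0.0990 RPKM in Control 1 to 3. The groups overlapped, with Middle 1 highest and Control 1 lowest. The ratio of means was 1.28, with a two-sided exact permutation p of 0.4.

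Fosl2 encodes Fra-2, a Fos relative without the strong activating end of Fos. It had 0.131, 0.162 and 0.117 RPKM in Middle 1 to 3, against 0.0850, 0.112 and 0.0958 RPKM in Control 1 to 3. Every Middle library lay above every Control library, as for 4.17% of the genes below the level filter. The means were 0.137 ± 0.0228 RPKM in Middle and 0.0974 ± 0.0133 RPKM in Control (SD, n = 3 each), a ratio of 1.40. The two-sided exact permutation p was 0.1, the smallest that 3 against 3 allows, so this design could not pass 0.05. The voom fit in limma gave Fosl2 a log2 fold change of 0.46 with an adjusted p of 0.322, from 36 to 73 reads per library. Summed, the Fos family of 3 genes reached 0.418 ± 0.0314 RPKM in Middle and 0.375 ± 0.119 RPKM in Control (SD, n = 3 each), and the groups overlapped.

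Jun is the AP-1 subunit best known for driving proliferation and stress responses, and it is activated by JNK kinases. It had 2.08, 1.84 and 1.53 RPKM in Middle 1 to 3, against 1.78, 1.83 and 1.94 RPKM in Control 1 to 3. Middle held both the highest and the lowest value. The log2 fold change was -0.02 (SE 0.09, 95% interval -0.23 to 0.19; limma adjusted p = 0.904), and it changed sign without Middle 3 (0.0545) or without Control 3 (0.0024). Jun is a gene of 1 exon at chr4:94937271-94940459 (GRCm39), and 7.3% of its bases overlap Junos on the opposite strand, which was listed at 0.107 to 0.193 RPKM.

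Junb, which can oppose Jun at many targets, had 1.90, 1.34 and 1.33 RPKM in Middle 1 to 3, against 1.05, 1.18 and 1.47 RPKM in Control 1 to 3. Middle 1 was highest, and Control 3 lay above the other 2 Middle libraries. The log2 fold change was 0.18 (SE 0.12, 95% interval -0.09 to 0.44; limma adjusted p = 0.394). It was 0.07 without Middle 1. Junb lies at chr8:85701113-85705347 (GRCm39) and shares 7.5% of its exon bases with Prdx2, a peroxiredoxin gene on the opposite strand at 5.56 to 7.92 RPKM, so part of its reads may belong to that gene.

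Jund is the Jun family member that many tissues carry at a steady level without stimulation. It had 66.2, 53.0 and 55.4 RPKM in Middle 1 to 3, against 46.2, 46.5 and 51.0 RPKM in Control 1 to 3. Every Middle library lay above every Control library, as for 17.9% of all fitted genes. The means were 58.2 ± 7.01 RPKM in Middle and 47.9 ± 2.68 RPKM in Control (SD, n = 3 each), a ratio of 1.22. The log2 fold change was 0.27 (SE 0.09, 95% interval 0.06 to 0.49), with an unadjusted p of 0.0198 and an adjusted p of 0.189 in limma, so the difference did not pass. Without Middle 1 the log2 fold change was 0.18.

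The Jund level could not be assigned to Jund alone. This 1-exon gene at chr8:71151599-71153265 (GRCm39) contains all 877 exon bases of Gm11175, an antisense gene, which make up 52.6% of Jund's own 1667 bases. Gm11175 averaged 67.6 ± 8.30 RPKM in Middle and 54.4 ± 3.88 RPKM in Control (SD, n = 3 each), and its reads equalled 58.8% to 61.3% of those of Jund. Mir451a and Mir451b, the 1 pair listed at identical positions on both strands, held equal reads in 6 of 6 libraries but no more than 8, so the strand rule of the counting rests on little. If the reads of Gm11175 are taken as also counted for Jund, the other 790 Jund bases had 54.1, 43.7 and 45.4 RPKM in Middle 1 to 3, against 39.3, 40.4 and 42.2 RPKM in Control 1 to 3. Every Middle library lay above every Control library there too, as for 17.9% of all fitted genes. The log2 fold change was 0.22 (SE 0.09; limma adjusted p = 0.221).

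**Figure D2:**
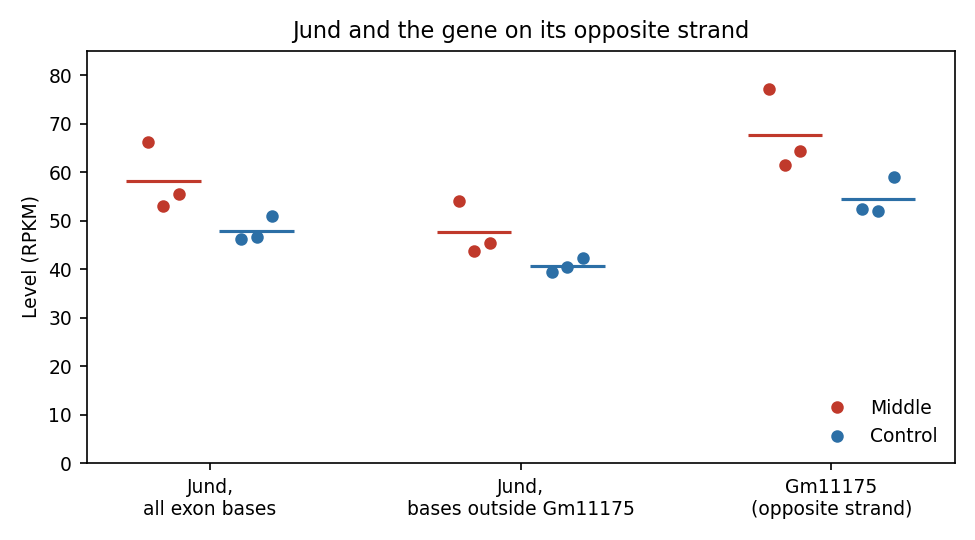
Level in RPKM of Jund over all its exon bases, of Jund over the bases outside Gm11175, and of Gm11175, 1 point per library, with Middle in red on the left and Control in blue on the right and bars at the group means. The bases outside Gm11175 averaged 47.7 RPKM in Middle and 40.6 RPKM in Control. Every Middle library lies above every Control library, as for 17.9% of all fitted genes.

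Sums of other gene lists are given beside Jund, and 55.9% of all fitted genes had a log2 fold change above 0. A list of 30 ribosomal protein genes, kept for RNA quality, summed to 3340 to 4349 RPKM in Middle and 2967 to 3153 RPKM in Control. All 30 log2 fold changes were above 0. A list of 13 mitochondrially encoded genes, kept for the same purpose, summed to 10910 to 14400 RPKM in Middle and 7717 to 9661 RPKM in Control. Of these 8 of 9 fitted were above 0. The exception, mt-Nd3, a subunit of respiratory complex I, was among the 8 genes called in the whole table and was lower in Middle (log2 fold change -1.16, limma adjusted p = 0.0267). Of the Sertoli cell markers 8 of 8 fitted were above 0, with all 10 summing to 215.1 to 222.4 RPKM in Middle and 200.5 to 207.2 RPKM in Control, and none was at 0. The 8 endothelial markers, none at 0, summed to 4.12 to 5.07 RPKM in Middle and 3.71 to 3.74 RPKM in Control. Only Cldn5 of these was fitted, through Middle alone, at 1.44 RPKM in Middle and 0.972 RPKM in Control, and Egfl7 and Kdr had ratios of Middle to Control of 0.825 and 0.943. Of the spermatid markers 10 of 10 were below 0, with sums of 26640 to 29080 RPKM in Middle and 28410 to 31450 RPKM in Control, where the groups overlapped. Fewer cells of a type and less RNA per cell cannot be told apart in whole testis, and the part of these differences in the Jund values was not tested. The testis label matched the high spermatid markers, with Leydig markers summing to 309.7 to 344.7 RPKM in Middle and 280.6 to 336.4 RPKM in Control. Insl3 alone averaged 237.0 RPKM in Middle and 212.8 RPKM in Control. Of 9 fitted Leydig markers 6 lay above 0 and 3 below. Those below were Star, Cyp11a1 and Cyp17a1, with ratios of Middle to Control of 0.593, 0.787 and 0.865.

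Base composition moved with the libraries as well. The rank correlation across 14003 genes between GC content and level relative to the other libraries was 0.446, 0.0282 and -0.0706 in Middle 1 to 3, against -0.294, -0.216 and -0.246 in Control 1 to 3; genes are not independent replicates. Jund has a GC content of 67.1% and Junb of 62.6%. After the GC trend was taken out of each library, the log2 fold change was 0.17 for Jund (limma adjusted p = 0.243), 0.07 for Junb (0.652) and 0.08 for Ier2 (0.727), and -0.09 for Jun (0.488).

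Atf3, a stress-induced bZIP protein that mostly represses, had 0.0980, 0.0796 and 0.0987 RPKM in Middle 1 to 3, against 0.0695, 0.0795 and 0.251 RPKM in Control 1 to 3. Control 3 stood above all others, on 21 reads, and the rest lay close together. The ratio of means was 0.691, with a two-sided exact permutation p of 1.0. On the log2(RPKM + 1) scale the difference was -0.05, and without Control 3 it was 0.02.

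Egr1, a zinc finger factor induced by growth signals and needed in the pituitary to make luteinizing hormone, had 0.706, 0.669 and 0.530 RPKM in Middle 1 to 3, against 0.509, 0.512 and 0.586 RPKM in Control 1 to 3. Control 3 exceeded Middle 3, so the groups overlapped. The means were 0.635 ± 0.0933 RPKM in Middle and 0.536 ± 0.0437 RPKM in Control (SD, n = 3 each), a ratio of 1.19 with a two-sided exact permutation p of 0.2.

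Ier2, a small early-induced nuclear protein whose gene has 1 exon, had 1.69, 1.17 and 0.791 RPKM in Middle 1 to 3, against 0.859, 0.989 and 0.964 RPKM in Control 1 to 3. Middle held the highest and the lowest value, and its SD of 0.452 RPKM compares with 0.0687 RPKM in Control. Because Ier2 entered the fit only through Middle, where its mean was higher, the fitted values are a description. The log2 fold change was 0.17 (SE 0.14, 95% interval -0.16 to 0.50; limma adjusted p = 0.478). It was 0.02 without Middle 1 and 0.32 without Middle 3.

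Myc, which pairs with Max to drive growth genes, had 0.0466, 0.126 and 0.130 RPKM in Middle 1 to 3, against 0.0826, 0.0883 and 0.0759 RPKM in Control 1 to 3. Middle 1 was the lowest library and the other 2 Middle libraries the highest. The ratio of means was 1.23, with a two-sided exact permutation p of 0.4, on 6 to 20 reads per library.

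**Figure D3:**
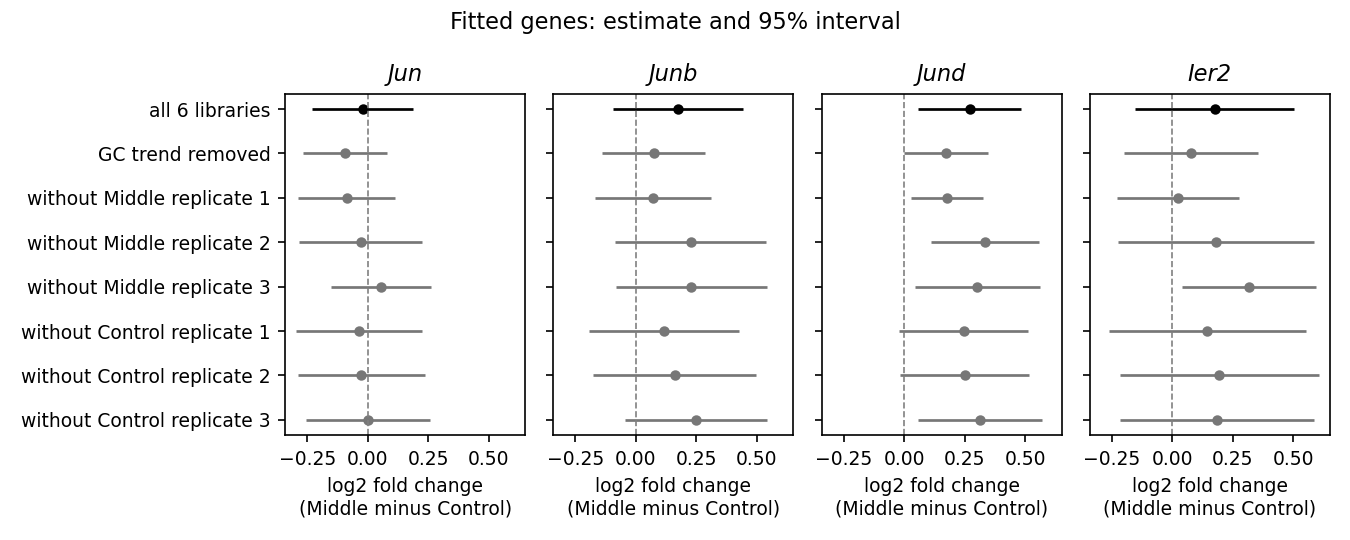
Log2 fold change, Middle minus Control, of the 4 fitted genes as points with 95% intervals as lines, for all 6 libraries, with the GC trend removed, and with each library left out. Jund is positive in each of the settings drawn, from 0.17 to 0.33, while Jun lies on both sides of 0. The Jund interval includes 0 with the GC trend removed, without Control 1 and without Control 2. Because the Jund groups do not overlap, leaving out 1 library could not change its sign. Ier2 entered the fit only through Middle, where its mean was higher.

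Read per library, Middle 1 was the highest for 6 of the 10 genes (Fosb, Jun, Junb, Jund, Egr1 and Ier2) and the lowest for Myc. Over all fitted genes Middle 1 was the highest library for 32.6% and the lowest for 28.4%, so it lay at an end for most genes. These shares come from fitted genes, while 6 of the 10 lay below the level filter. Among 25 other immediate early transcription regulators Middle 1 was the highest for 28.0%, and among 34 immediate early effectors and feedback genes for 32.4%. Control 1 was the highest for 0 of the 10 and the lowest for 6 (Fosb, Fosl2, Junb, Jund, Egr1 and Atf3), beside 15.4% and 28.2% of all fitted genes. In the same 2 lists Control 1 was the lowest for 32.0% and 29.4%. The single high values of Fos in Control 2 and Atf3 in Control 3 were in different libraries, and no library was high for all 10 genes.

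The 10 levels summed to 73.1, 58.7 and 60.2 RPKM in Middle 1 to 3, against 50.8, 51.7 and 56.6 RPKM in Control 1 to 3. Jund made up 91.0% ± 0.931 of that sum in Middle and 90.3% ± 0.485 in Control (SD, n = 3 each), so the total followed this gene. Without Jund the sums were 6.97, 5.65 and 4.80 RPKM in Middle 1 to 3, against 4.64, 5.18 and 5.61 RPKM in Control 1 to 3, and the groups overlapped. In the number of library pairs put in the same order, of 15, the 45 pairs of genes ranged from 3 to 14 with a median of 10; Egr1 shared 14 with Fosb and with Junb.

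**Figure D4:**
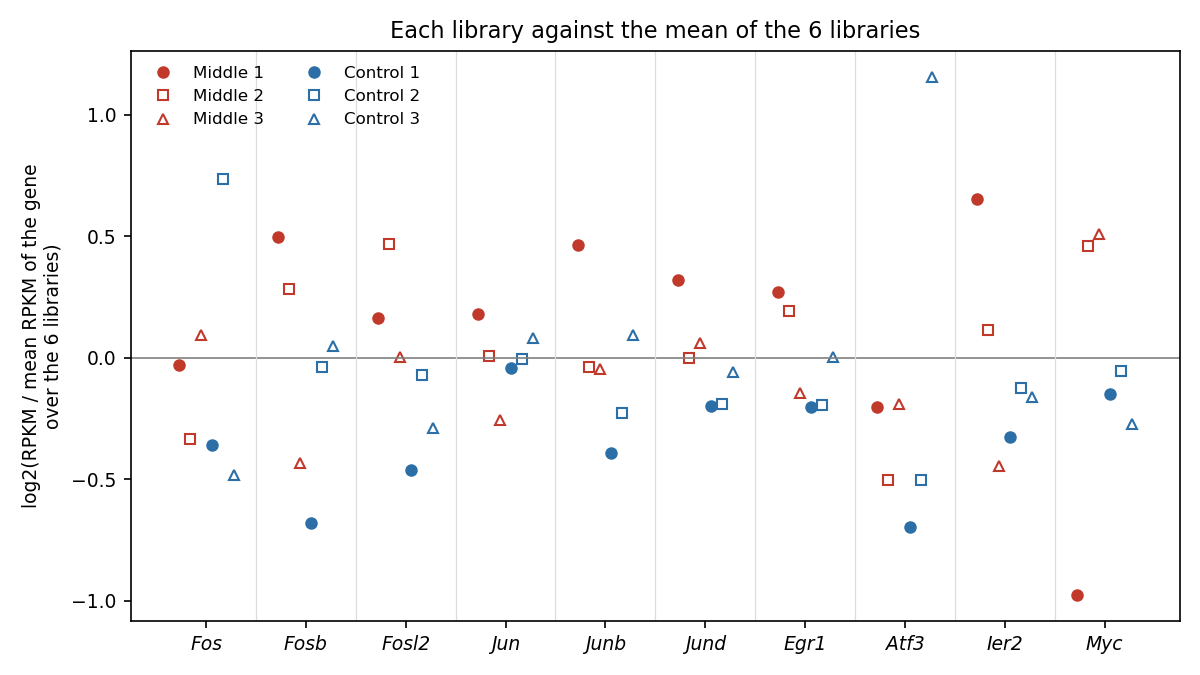
Level of each gene in each library as log2 of its RPKM over the mean of the 6 libraries, with Middle in red and Control in blue and the replicate number given by the symbol. Middle 1 is the highest point for 6 genes, while Fos is highest in Control 2 and Atf3 in Control 3.

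By order over the 6 libraries, the fitted genes most like Fos were Klhdc2 and Orai2, in the same order for 15 of 15 library pairs, then Irf2 and Kifbp among those alike for 14. Of 10657 genes compared, 2 matched all 15 pairs, and Fos itself rested on few reads. Whether so many matches exceed those of unrelated genes was not tested, so no link to Fos is drawn.

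Other immediate early genes were not called either. Of 25 further transcription regulators 12 were fitted, and limma called 0, beside 0.0532% of all fitted genes. At an unadjusted p under 0.05 in limma 3 passed, beside 20.7% of all fitted genes. There were 9 above 0 and 3 below, where 55.9% of all fitted genes lay above 0. The median log2 fold change was 0.08, beside 0.03 for all fitted genes. Of the 12, Klf10 and Hes1 reached the filter only through Middle, where they were higher, so the tally partly follows from the filter. Klf2, a Krüppel-like factor, averaged 4.69 ± 0.828 RPKM in Middle and 3.36 ± 0.802 RPKM in Control (SD, n = 3 each; limma adjusted p = 0.228). Csrnp1, a nuclear protein, averaged 10.1 RPKM in Middle and 8.24 RPKM in Control, and Hes1, a Notch target, 1.11 RPKM in Middle and 0.839 RPKM in Control. Named after their values were seen, Nr4a1 averaged 4.40 RPKM in Middle and 4.64 RPKM in Control, and Egr2, a relative of Egr1, 0.0201 RPKM in Middle and 0.0118 RPKM in Control.

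Of 34 effectors and feedback genes 21 were fitted and 0 called, beside 0.0532% of all fitted genes. At an unadjusted p under 0.05 in limma 7 passed, beside 20.7% of all fitted genes. There were 15 above 0 and 6 below, with a median of 0.13. Zfp36l2, an mRNA decay factor, averaged 1.48 ± 0.128 RPKM in Middle and 0.972 ± 0.102 RPKM in Control (SD, n = 3 each; limma adjusted p = 0.178). Its groups did not overlap, and 17.9% of all fitted genes had every Middle library above every Control library. Nab1, a corepressor of EGR proteins, averaged 2.82 RPKM in Middle and 2.26 RPKM in Control, and Ier5l 1.13 RPKM in Middle and 0.838 RPKM in Control. Zfp36l2 and Ier5l entered the fit only through Middle, so their differences had to point that way. Arc, an early gene of neurons named after its values were seen, stood at 109.6 ± 7.56 RPKM in Middle and 100.1 ± 7.41 RPKM in Control (SD, n = 3 each), above the mean of each of the 10 factors.

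Among 23 possible AP-1 partners and related bZIP factors, 15 were fitted and 0 called, beside 0.0532% of all fitted genes. At an unadjusted p under 0.05 in limma 2 passed, beside 20.7% of all fitted genes. There were 11 above 0 and 4 below, with a median of 0.04. Atf2, which pairs with Jun, averaged 8.14 RPKM in Middle and 6.99 RPKM in Control. Atf1, of the CREB family, averaged 11.6 RPKM in Middle and 13.7 RPKM in Control. Crem, the cyclic AMP factor of spermatids, named after its values were seen, had 27.1 ± 2.43 RPKM in Middle and 26.7 ± 0.296 RPKM in Control (SD, n = 3 each).

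The kinases and SRF cofactors that act upstream gave 9 above 0 and 8 below of 17 fitted, from a list of 25. Of these 0 were called, beside 0.0532% of all fitted genes. At an unadjusted p under 0.05 in limma 2 passed, beside 20.7% of all fitted genes, and the median was 0.02. Map3k5, a stress-activated kinase, averaged 1.23 RPKM in Middle and 0.976 RPKM in Control, and Map2k2, which activates ERK, 20.5 RPKM in Middle and 17.9 RPKM in Control. Map3k5 entered only through Middle, and Map2k1 only through Control. The Myc network had 14 of 19 genes fitted and 0 called, beside the same 0.0532%. At an unadjusted p under 0.05 in limma 4 passed, beside 20.7% of all fitted genes. There were 8 above 0 and 6 below, with a median of 0.01. Mlx, a Max-like partner, averaged 3.64 RPKM in Middle and 2.86 RPKM in Control, Zbtb17, a Myc-binding zinc finger protein, 11.1 RPKM in Middle and 9.56 RPKM in Control, and Cad, a pyrimidine synthesis enzyme and known Myc target, 1.48 RPKM in Middle and 1.13 RPKM in Control.

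Stress responses that run beside the immediate early genes had no called gene, where 0.0532% of all fitted genes were called. Of 16 heat shock genes 14 were fitted and 0 called. At an unadjusted p under 0.05 in limma 4 passed, beside 20.7% of all fitted genes. There were 8 above 0 and 6 below, with a median of 0.07. The chaperone Hspa8 averaged 118.3 ± 9.53 RPKM in Middle and 96.8 ± 3.46 RPKM in Control (SD, n = 3 each; limma adjusted p = 0.178). Every Middle library lay above every Control library for Hspa8, as for 17.9% of all fitted genes. Hsp90ab1 averaged 249.6 RPKM in Middle and 206.0 RPKM in Control, and the co-chaperone Bag3 29.5 RPKM in Middle and 25.5 RPKM in Control. The heat-inducible Hspa1a, named after its values were seen, had 2.47 ± 0.287 RPKM in Middle and 2.45 ± 0.309 RPKM in Control (SD, n = 3 each). Also named after their values were seen, Hspa1b had 2.305 RPKM in Middle and 2.355 RPKM in Control, and Hspb1 8.89 RPKM in Middle and 6.69 RPKM in Control. For Hspb1 the log2 fold change was 0.35 (limma adjusted p = 0.210).

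The integrated stress response, in which Atf3 is a downstream factor, had 15 of 22 genes fitted and 0 called, beside 0.0532% of all fitted genes. At an unadjusted p under 0.05 in limma 5 passed, beside 20.7% of all fitted genes. There were 10 above 0 and 5 below, with a median of 0.15. Xbp1, a factor of the unfolded protein response, averaged 3.09 RPKM in Middle and 2.37 RPKM in Control, Shmt2, of serine metabolism, 3.35 RPKM in Middle and 2.58 RPKM in Control, and Slc3a2, an amino acid transporter subunit, 27.2 RPKM in Middle and 22.5 RPKM in Control. Ddit3, which encodes CHOP and was named after its values were seen, had 66.1 RPKM in Middle and 65.8 RPKM in Control.

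**Figure D5:**
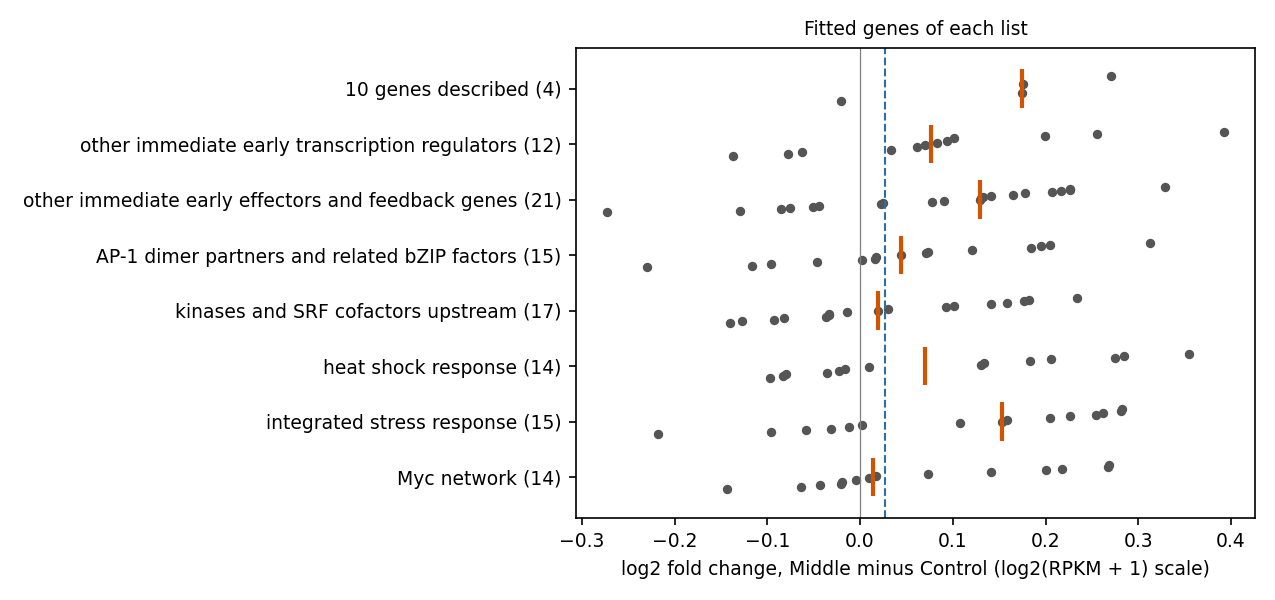
Log2 fold change, Middle minus Control, of each fitted gene of the 10 described genes and of the 7 related lists, with the number fitted in brackets, an orange bar at each list's median and a dashed blue line at the median of all fitted genes, 0.03. Genes of each list lie on both sides of 0, and none passed the threshold, which 0.0532% of all fitted genes passed.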

How the data were processed

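The deposited table held RPKM values that the authors had computed per gene and library, with GRCm39 exon coordinates and lengths, per the file headers. Trimming with fastp 0.23.0 and the build are per the submitters' processing notes; for the aligner, the counter and its strand setting: not given in the sources used here. All values times gene length were whole multiples of 1 step per library (tolerance 0.001), so reads were recovered: 38820385 to 58389391 reads over genes per library, with both mates apparently counted, since 73.3% to 74.7% of low read numbers were even. Libraries were grouped by title. Within each group, every pair of libraries differed beyond sampling noise in its reads (chi-square per degree of freedom at least 6.26), so none was treated as a copy of another; this does not show that they are separate animals.

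Values were tested as log2(RPKM + 1) with limma 3.58.1 (R 4.3.3, trend, two-sided), for the 15040 genes whose mean reached 1 RPKM in a group, with Benjamini-Hochberg adjustment over them; fold changes on that scale understate those of low genes. The 23675 genes below the filter got exact permutation tests only where named. Named besides the 10 genes are up to 3 fitted genes per list with the smallest p and the 5 most like Fos; some of these genes are not reported here. The genes and lists were chosen with earlier results of these data known. Alternatives were other filters, pseudocounts and scalings, limma-voom, a replicate block, removal of the GC trend, and each library left out. Protein sequences were not used here.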

Additional observations from a re-analysis of the deposited data

How the results depend on the processing

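The number of immediate early factors called was 0 under every alternative run, and the lowest adjusted p of any of them was 0.115 (Jund without Middle 2; 0.115 to 0.516 over its alternatives). The count of all genes called, 8 at first, was 0 with no filter on low values, 0 with the replicate block, 0 with the GC trend removed and the replicate block, and 0 with no filter and the GC trend removed. That last setting, and the Jund bases outside Gm11175, were added once the data had been seen. Leaving out 1 library gave 0 to 3 called genes (1 without Middle 1, 3 without Control 1). Deviations from the group mean correlated at -0.153, -0.119 and 0.00544 between libraries of the same number. Between libraries of different numbers the correlations ran from -0.0912 to 0.163. With 3 libraries per group the deviations are tied to each other, so these values cannot decide whether same-numbered libraries were paired. Of 523 alternatives over 32 single genes 506 kept direction and call or, for genes with no test, moved by less than the SD between libraries. Another 15 moved by more, all in Fosb, Fosl2, Egr1, Atf3 and Myc. These were the smaller pseudocounts and limma-voom, besides Fosb with no filter and the GC trend removed. The SD was taken on the log2(RPKM + 1) scale, while smaller pseudocounts and limma-voom use scales on which low genes differ more. The other 2 reversed: Jun gave 0.0545 without Middle 3 and 0.0024 without Control 3, in a range of -0.0862 to 0.0545 over the libraries left out. Within that SD, Fos turned to 0.05 without Control 2 and Atf3 to 0.02 without Control 3. With no filter and the GC trend removed, Fosb gave -0.01 and Myc -0.004. The causes were not tested. Few reads limit what could be seen for Fos, Fosb, Fosl2, Atf3 and Myc.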
